A study of Mus musculus with 8 samples.

Results

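IκBα-deficient (KO) long-term hematopoietic stem cells (LT-HSCs) of the E14.5 fetal liver were compared with wild-type (WT) and heterozygous (HET) LT-HSCs within the libraries whose molecule label reads polyA RNA. These were 5 of the 8 RNA-seq libraries in the series, KO1 and KO2 against the references WT3, HET2 and HET3, and all 5 came from embryos labelled female. Of 55487 annotated genes, the 18530 with 10 or more reads summed over the 5 libraries were kept. Embryos came from matings of animals heterozygous for a deleted *Nfkbia* allele (the line B6.129P2 *Nfkbia* tm1Bal/J), some of them also carrying a Gfi1:tomato reporter, so KO cells lacked both copies of the gene in every tissue and HET references lacked one. Each library was made from 500 fetal liver cells sorted as lineage-negative, SCA1+ and KIT+ cells without CD48 and with CD150. The other 3 libraries (WT1, WT2 and HET1) were labelled total RNA and male, so label and sex cannot be told apart between the 2 sets. They entered no test, and their values are given only beside the results. The methods give 3 mice per genotype and state that a further KO sample was discarded for its quality.

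NF-κB transcription factors are dimers of RELA, RELB, REL, NFKB1 and NFKB2, and the inhibitors of κB hold them in the cytoplasm until a receptor activates the IκB kinases. IκBα, the product of *Nfkbia*, is degraded on that signal and made again from its own gene, which NF-κB induces, so it closes a feedback loop. Fetal liver LT-HSCs divide and expand, whereas LT-HSCs of the adult marrow are mostly dormant, and endothelial and inflammatory programs are known from the earlier emergence of these cells in the aorta-gonad-mesonephros (AGM) region.

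The 5 libraries held 17895973 to 21720972 reads in genes, and 19171 to 21744 genes had at least 1 read. Levels are CPM, read counts scaled by library size and trimmed-mean factors, and 3 reads corresponded to 0.136 to 0.172 CPM. The references did not form one group. A list of 14 LT-HSC markers summed to 2568 and 1818 CPM in KO1 and KO2 and to 782 to 1179 CPM over the references, of which *Gfi1b*, the member lower in KO, made up 487, 359.5 and 554 CPM in WT3, HET2 and HET3. The other 13 summed to 2463 and 1599.5 CPM in KO1 and KO2 and to 359, 819.6 and 228 CPM in WT3, HET2 and HET3. *Ly6a*, which encodes the SCA1 antigen used in the sort, was at 47.7 and 39.8 CPM in KO1 and KO2 against 4.87, 13.7 and 0 CPM in WT3, HET2 and HET3, the last being 0 reads. *Procr*, the endothelial protein C receptor of LT-HSCs, was at 89.9 and 81.9 CPM against 8.27, 29.9 and 1.09 CPM, and *Mecom*, a stem cell transcription factor, was at 165 and 101 CPM against 9.796, 47.7 and 1.32 CPM, in the same order of libraries. In each of these 3 genes HET2 was the highest reference and HET3 the lowest. *Slamf1* and *Kit*, which encode the CD150 and KIT of the sort, lay closer together among the references, at 19.3, 22.1 and 12.6 CPM and at 144, 161 and 164 CPM. *Cd48*, whose product the sort excluded, lay between 44.7 and 53.6 CPM in all 5. Erythroid genes went the other way. *Klf1*, the erythroid master regulator, was at 33.7 and 495 CPM against 1013, 917 and 1187 CPM. Counts for the main gene lists are therefore also given without HET3, and what these markers contribute to each difference was not tested. In bulk samples, fewer cells of a type and less RNA per cell cannot be told apart.

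The deleted gene was read first. *Nfkbia* (ENSMUSG00000021025, chr12:55489410-55492647 on the minus strand, GRCm38) had 1 and 0 reads in KO1 and KO2 and 450, 574 and 243 reads in WT3, HET2 and HET3. This was 0.045 and 0 CPM against 22.8, 28.2 and 13.9 CPM, and the groups did not overlap. Pooled over libraries, the references held 954 times the share of reads that the KO libraries did, with an exact 95% interval of 171 to 37700 that covers counting error only. The adjusted p in edgeR's quasi-likelihood test was 0.110. WT1, WT2 and HET1 were at 42.7, 64.2 and 22.9 CPM, so the HET libraries (13.9 to 28.2 CPM) and the WT libraries (22.8 to 64.2 CPM) overlapped. Of 56 other kept genes within 5 Mb, 9 (16.1%) were above and 18 (32.1%) below the references in both KO libraries, against 27.7% and 24.5% of all genes kept, with a median log2 fold change of -0.21.

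The *Nfkbia* promoter carries letters of the kind NF-κB dimers are known to bind, and it is shown here beside that of *Icam1*, the NF-κB target whose level in KO cells is described below. Both are the 250 bases before the start site from the RefSeq GRCm38.p6 table, 5′ to 3′ on the gene's strand, chr12:55492648-55492897 (minus) and chr9:21015690-21015939 (plus), with matches to GGANNTTCC or, for the other strand, its reverse complement GGAANNTCC in capitals.
Nfkbia: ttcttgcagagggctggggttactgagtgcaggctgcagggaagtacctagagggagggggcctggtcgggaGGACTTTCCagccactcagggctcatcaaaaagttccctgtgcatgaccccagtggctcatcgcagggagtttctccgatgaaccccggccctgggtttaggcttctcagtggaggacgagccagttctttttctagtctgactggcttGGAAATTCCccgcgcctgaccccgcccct
Icam1: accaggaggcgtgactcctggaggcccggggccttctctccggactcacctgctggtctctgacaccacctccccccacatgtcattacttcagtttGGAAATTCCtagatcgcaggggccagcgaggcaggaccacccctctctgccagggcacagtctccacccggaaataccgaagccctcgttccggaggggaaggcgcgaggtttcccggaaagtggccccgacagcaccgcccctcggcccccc
Counted from its first base, the motif lay 178 and 29 bases before the start of *Nfkbia* and 153 bases before that of *Icam1*. The same window of 963 of 27025 promoters (3.56%) held it on either strand, a stretch that matches on both being counted once. Among protein-coding genes with a mean of 5 CPM or more, it was found in 78 of 2128 promoters (3.67%) of genes above the references, 105 of 2805 (3.74%) of genes below and 3.7% of the 2759 of genes that overlapped. It was in 7 of the 23 matched promoters of a list of NF-κB target genes (*Csf1*, *Cxcl10*, *Icam1*, *Nfkbia*, *Nfkbie*, *Tnf* and *Tnfaip3*). A match describes the letters and is not a binding site.

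A gene is called above the references here when the lower KO value exceeds the highest of the 3 reference values, and below them when the higher KO value is under the lowest reference. By this rule 5131 genes (27.7% of those tested) were above and 4539 (24.5%) below. The counts given for gene lists below are to be read beside these shares. Among the 9852 genes with a mean of 5 CPM or more these were 2704 (27.4%) and 3582 (36.4%). Without HET3, 5677 genes (31.4%) were above and 4835 (26.7%) below. In edgeR's quasi-likelihood test with Benjamini-Hochberg adjustment, 0 genes (0% of 18530) passed (adjusted p under 0.05, and more than 1 log2 unit either way), and the lowest adjusted p was 0.0753. At an unadjusted p under 0.05 there were 5059 genes (27.3%), of which 1902 were higher and 617 lower by more than 1 log2 unit. DESeq2's Wald test on the same counts called 1335 genes higher (7.2%) and 467 lower (2.52%), of which 1323 and 458 also lay above or below the references by the rule. With apeglm's shrinkage of the fold changes 1142 and 250 were called, and edgeR's version 4 form of its test called 3 in all. Since no gene passed edgeR's test, the levels that follow are described by library and by overlap. An exact permutation test of 2 against 3 libraries has 10 splits and cannot go below p = 0.2 (two-sided). Every named gene that lay beyond the references reached that floor, and nothing more can be read from it.

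**Figure D1:**
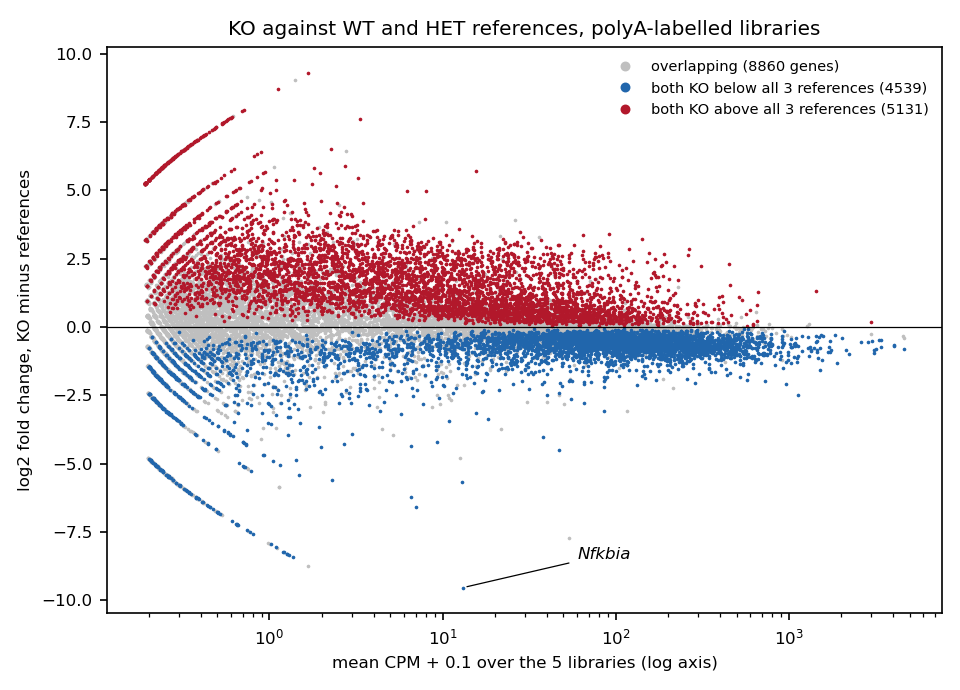
Mean level over the 5 libraries (CPM + 0.1, log axis) against the log2 fold change of KO over the references for each of 18530 kept genes. Red points are the 5131 genes with both KO libraries above all 3 references, blue points the 4539 below, grey points the rest, and *Nfkbia* is labelled.

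The scaling bears on every direction given below. The median log2 fold change over all kept genes was 0.07 with trimmed-mean factors, which were 1.23 and 1.07 in KO1 and KO2 and 0.885 to 0.949 in the references. With library size alone the median moved to 0.40, 7257 genes (39.2%) were above and 2660 (14.4%) below. Directions that turn with that choice are given in the same sentence.

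The KO libraries were not the closest pair. Over the 9852 genes, the root-mean-square log2 difference between KO1 and KO2 was 0.780, while KO2 and HET2 differed by 0.623. KO1 lay 1.02 from HET2, 1.39 from WT3 and 1.73 from HET3, so the references spread over a range with HET2 at the side of the KO libraries. HET2 was the nearest reference for 62.7% of the genes above and 61.0% of those below, and KO1 was the farther of the KO libraries for 73.7% and 84.7%. The total RNA wild types were closer to KO1 (0.499 for WT1 and 0.508 for WT2) than KO2 was. Of the genes above the references, 4316 (84.1%) were also above them in both WT1 and WT2, and of those below, 3938 (86.8%) were also below in both. Over all genes kept, the same libraries were above the references for 33.6% and below them for 29.6%. The values of these libraries are set beside the main gene groups for this reason, as each list's median difference, in log2 units, from the mean of the 3 references. No cause was tested.

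Genes were named by lowest unadjusted p among protein-coding genes with a mean of 5 CPM or more, no overlap and over 1 log2 unit of change. There were 1175 such genes above and 503 below, and 15 of each were taken. Those above gave the same adjusted p of 0.116 in edgeR's quasi-likelihood test. *Gata2*, a transcription factor needed for stem cells to form and persist, was at 167 and 132 CPM in KO1 and KO2 against 27.7, 39.3 and 33.3 CPM in WT3, HET2 and HET3, a log2 fold change of 2.16 ± 0.20 (SE). Every library's value is given in that order from here on. *Lcp1*, the actin-bundling protein L-plastin of leukocytes, was at 467 and 354 CPM against 95.4, 101.8 and 63.7 CPM. *Sash3*, an adaptor of lymphoid signaling, was at 192 and 133 CPM against 42.1, 53.6 and 33.3 CPM. All 3 were also above the references in the wild types labelled total RNA, at 132 and 141 CPM for *Gata2* in WT1 and WT2. Several of the 15 are known to act on small GTPases or the cytoskeleton, a share that was not counted over all genes. *Sipa1*, a GTPase-activating protein for RAP1, was at 72.2 and 71.7 CPM against 25.99, 29.97 and 29.5 CPM, and it was lower than in KO in WT1, WT2 and HET1, at 64.99, 66.5 and 50.95 CPM. *Acap1*, which acts on ARF6 in integrin recycling, was at 134 and 142 CPM against 30.96, 40.2 and 23 CPM. *Rai14*, an actin-binding protein, was at 24.6 and 20.8 CPM against 6.497, 5.41 and 5.96 CPM and lower than in KO in WT1, WT2 and HET1 too, at 15.8, 19.7 and 15.7 CPM. *Tpm3*, a tropomyosin that lines actin filaments, was at 365 and 316 CPM against 145, 151 and 131 CPM. Reads may be split between *Tpm3* and its copy *Tpm3-rs7*, described below, so these values are uncertain. The rest have varied roles. *Spns2*, the transporter that exports sphingosine-1-phosphate, was at 171 and 148 CPM against 77.3, 86.2 and 73.99 CPM. *Ccng2*, an unconventional cyclin linked to cell cycle arrest, was at 56.8 and 42.3 CPM against 8.02, 13.5 and 6.71 CPM. *Ash1l*, a histone H3 lysine methyltransferase, was at 90.8 and 69.97 CPM against 35.3, 35.97 and 35.1 CPM. *Plcb3*, a phospholipase C whose loss is known to cause myeloproliferation, was at 27.3 and 17.902 CPM against 4.97, 5.76 and 5.74 CPM. *Slc44a2*, *Tor4a*, *Coq8a* and *Cand2* completed the set, with log2 fold changes of 1.60 ± 0.17, 1.72 ± 0.24, 1.24 ± 0.18 and 2.13 ± 0.31 (SE).

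The 15 genes named below the references began with 2 that have near-identical copies elsewhere in the genome. *Tpm3-rs7*, an intronless copy of *Tpm3* on chromosome 14, was at 4.05 and 2.68 CPM in KO1 and KO2 against 70.2, 90.2 and 68.1 CPM in WT3, HET2 and HET3, and *Rpl29*, a large-subunit ribosomal protein, was at 2.82 and 4.65 CPM against 62.3, 58.7 and 61.5 CPM. Both had an adjusted p of 0.0753, the lowest of all genes in edgeR's test. Only uniquely mapped reads were counted, so reads may be split between such copies and these values are uncertain. WT1, WT2 and HET1 were at 3.05, 28.1 and 7.19 CPM for *Rpl29*, below every reference, and at 4.24, 3.33 and 99.9 CPM for *Tpm3-rs7*, where HET1 was above every reference. *Nfkbia* was next. *Tma7*, a translation-associated protein, was at 19.8 and 19.8 CPM against 57.2, 59 and 55.9 CPM, and WT1, WT2 and HET1 at 20.4, 37.8 and 24.7 CPM were above both KO libraries. *Tspo2*, a cholesterol-binding membrane protein of erythroid cells, was at 8.69 and 20.5 CPM against 96.6, 92.3 and 109 CPM, and *Ppox*, an enzyme of heme synthesis, was at 31.1 and 41.8 CPM against 86.5, 103 and 74.9 CPM. These accompany the erythroid genes described below. Nuclear RNA and chromatin proteins were also among the 15. *Magohb*, a subunit of the exon junction complex, was at 38.97 and 51.9 CPM against 99.3, 108 and 97.8 CPM. *Ints12*, of the Integrator complex, was at 33.8 and 41.6 CPM against 90.7, 73.8 and 90.4 CPM. *Hat1*, the acetyltransferase of newly made histone H4, was at 250.3 and 306 CPM against 527, 531 and 614 CPM. *Rpia*, of the pentose phosphate pathway, was at 9.14 and 12.9 CPM against 35.02, 32.6 and 29.3 CPM. The remaining 5 (*Tmem192*, *Rita1*, *2700097O09Rik*, *Rps19bp1* and *Tmem9b*) had log2 fold changes of -1.07 ± 0.17, -1.56 ± 0.25, -1.02 ± 0.17, -1.03 ± 0.17 and -1.01 ± 0.17 (SE).

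**Figure D2:**
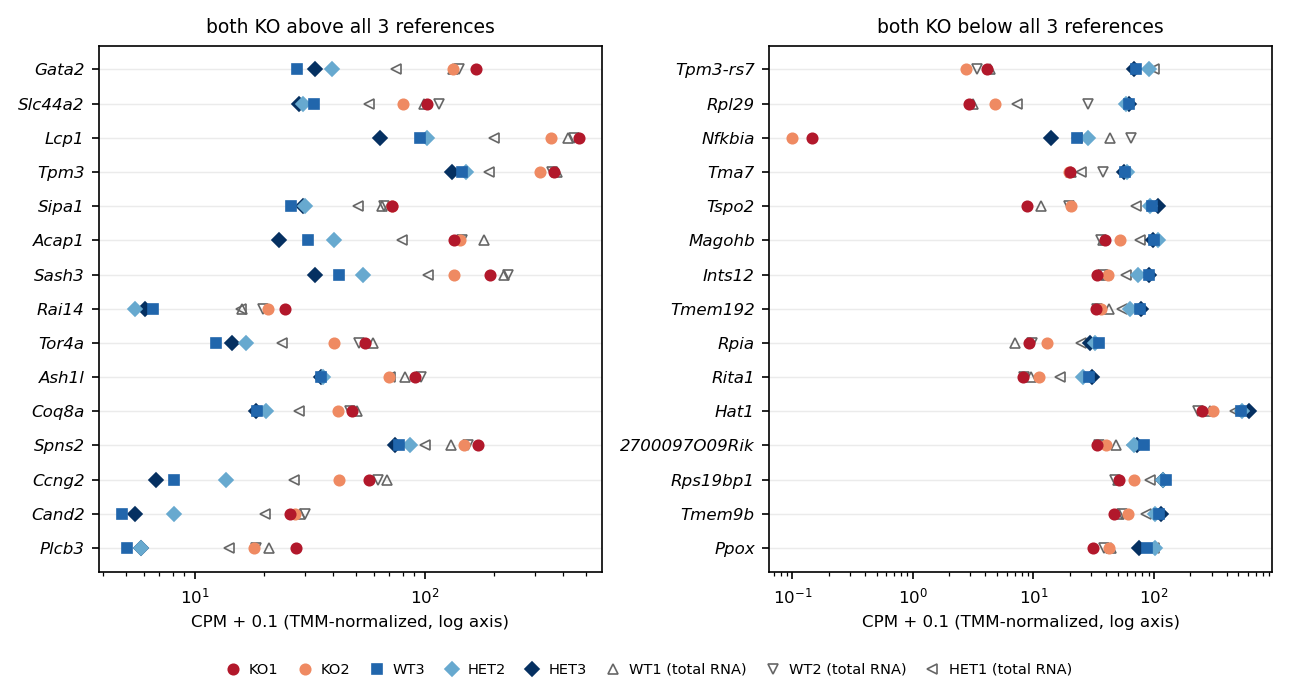
Levels (CPM + 0.1, log axis) of the 15 named genes above and the 15 below the references, one point per library, with the 5 compared libraries and the 3 total RNA libraries marked apart. KO points of *Gata2* sit at 132 and 167 CPM above references at 27.7 to 39.3, and those of *Rpl29* at 2.82 and 4.65 CPM below references at 58.7 to 62.3.

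Of the IκB family itself, 3 of 7 genes were above the references and 2 below. *Nfkbie*, encoding IκBε, which holds REL and RELA dimers in the cytoplasm, was at 31.2 and 23.4 CPM against 5.74, 8.17 and 1.95 CPM. *Bcl3*, a nuclear member that acts on p50 and p52 dimers, was at 13.6 and 7.85 CPM against 1.07, 4.92 and 1.03 CPM. *Nfkbil1*, a more distant relative, was at 11.9 and 10.3 CPM against 4.72, 7.77 and 7.63 CPM. *Nfkbib*, encoding IκBβ, lay on the other side at 61.4 and 82.6 CPM against 116, 99.1 and 122 CPM. The nuclear members *Nfkbid* and *Nfkbiz* overlapped the references. Among the subunits, *Relb*, the partner of p52 in the noncanonical pathway, was at 16.9 and 14 CPM against 1.98, 4.13 and 1.49 CPM, a log2 fold change of 2.60 ± 0.51 (SE). The lower KO library was thus over 3 times the highest reference, and WT1, WT2 and HET1 were at 13.1, 9.95 and 4.06 CPM, all below both KO libraries. *Nfkb1*, the p105 and p50 precursor, was also above but by little, at 122 and 122 CPM against 90.3, 97.8 and 114 CPM. *Rela*, the main transactivating subunit, did not separate the groups at 112 and 126 CPM against 119, 109 and 124 CPM. *Rel* and *Nfkb2* were high in KO1 and within the references in KO2, at 11.7 and 3.52 CPM against 0.66, 4.62 and 0.516 CPM and at 17.01 and 7.14 CPM against 4.97, 7.23 and 3.21 CPM. With library size alone 4 of the 5 subunit genes were above.

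Upstream of the inhibitors, 19 of 34 measured receptors, adaptors and kinases were above the references and 5 below, and DESeq2 called 8 higher and 0 lower. Without HET3, the counts above and below were 20 and 5. The receptors led the list. *Tnfrsf1a*, encoding TNF receptor 1, was at 107 and 75.8 CPM against 16.9, 38.04 and 9.87 CPM, and *Tnfrsf1b*, encoding TNF receptor 2, was at 22.9 and 20.2 CPM against 4.62, 10.7 and 3.04 CPM. *Ltbr*, the lymphotoxin β receptor that drives the noncanonical pathway, was at 45.02 and 36.7 CPM against 12.99, 17.8 and 14.45 CPM. *Tlr2*, a receptor for bacterial lipoproteins, was at 19.4 and 10.7 CPM against 4.82, 5.26 and 2.47 CPM. *Tlr4*, the lipopolysaccharide receptor, and *Il1r1*, the interleukin-1 receptor, overlapped the references. *Map3k14*, the NF-κB inducing kinase of the noncanonical pathway, was low throughout at 2.82 and 5.17 CPM against 0.305, 1.28 and 0.344 CPM. Of the IκB kinases, *Chuk* (IKKα) was below the references at 51.98 and 57.4 CPM against 89.7, 89.6 and 108 CPM, while *Ikbkb* (IKKβ) and *Ikbkg* (NEMO) overlapped them. *Map3k7* (TAK1), *Tradd*, *Tab3* and *Traf5* were also below. With library size alone 22 were above and 2 below. The list's median stood at 0.68 and 0.41 in KO1 and KO2, -0.06, 0.11 and -0.10 in WT3, HET2 and HET3, and 0.67, 0.59 and 0.40 in WT1, WT2 and HET1.

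Most brakes on the pathway were higher in both KO libraries, with 11 of 13 above and only *Otulin* below. *Tnip3*, a binding partner of the ubiquitin-editing enzyme A20, was at 16.96 and 18.4 CPM against 0.102, 6.94 and 0.057 CPM, where WT3 and HET3 are at 2 reads and 1 read. *Irak3*, an inhibitory kinase of Toll-like receptor signaling, was at 39.5 and 27.5 CPM against 5.28, 10.3 and 1.09 CPM. *Tnfaip3*, encoding A20 itself, overlapped at 6.91 and 4.32 CPM against 0.305, 8.71 and 0.746 CPM, with HET2 the highest of the 5. Of the NF-κB target genes, 15 of 30 kept were above and 2 below, DESeq2 called 8 higher and 2 lower, and the median log2 fold change was 1.14. Without HET3, the counts above and below were 16 and 4. *Icam1*, an adhesion molecule, was at 32.2 and 21.71 CPM against 8.63, 7.04 and 1.03 CPM, and WT1 and WT2 were higher still, at 46.8 and 42.7 CPM. *Irf1*, a transcription factor of both the NF-κB and interferon responses, was at 56.4 and 28.3 CPM against 5.13, 10.5 and 1.72 CPM. *Traf1*, a signaling adaptor and known target, was at 5.64 and 6.202 CPM against 1.12, 0.787 and 0.057 CPM. *Cflar*, which blocks caspase 8, was at 37.1 and 24.2 CPM against 16.8, 19.2 and 8.49 CPM. Other targets overlapped the references. *Ccl4*, a chemokine, was at 27.9 and 15.5 CPM against 2.28, 28.3 and 1.15 CPM, *Il1a* at 0.5 and 2.63 CPM against 5.03, 0.443 and 1.15 CPM and *Vcam1*, an adhesion molecule also made by macrophages and stroma, at 1.05 and 2.396 CPM against 30.1, 0.738 and 8.43 CPM. *Sod2*, the mitochondrial superoxide dismutase and a known target, was below the references at 145 and 255 CPM against 383, 373 and 408 CPM. The median of the target list stood at 1.80 and 1.01 in KO1 and KO2, 0.08, 0.70 and -0.72 in WT3, HET2 and HET3, and 1.71, 1.53 and 0.83 in WT1, WT2 and HET1.

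**Figure D3:**
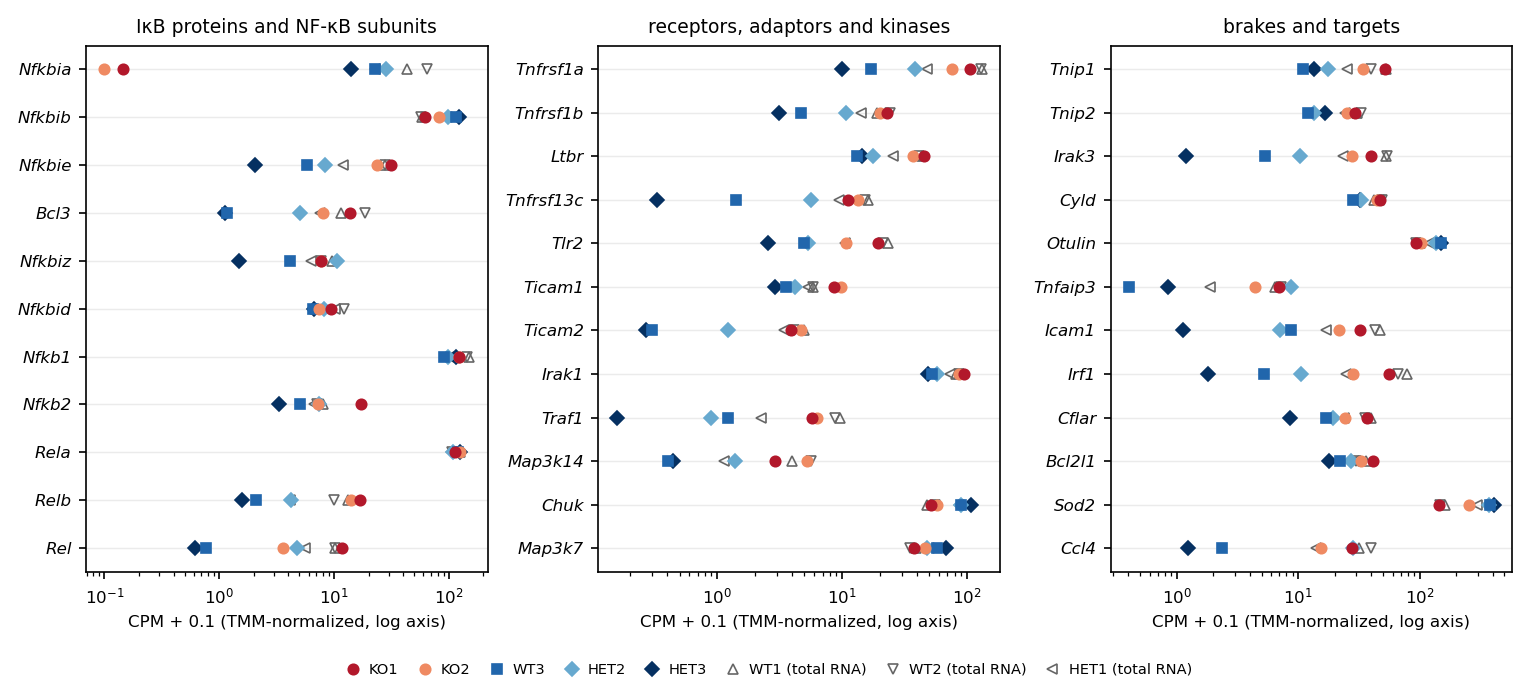
Levels (CPM + 0.1, log axis) of NF-κB genes in 3 panels, IκB family and subunits, receptors with adaptors and kinases, and brakes with targets, one point per library. *Relb* and *Nfkbie* separate KO from the references, *Rela* does not, and *Nfkbia* lies at or next to 0 in KO only.

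A further set of 16 NF-κB pathway genes had 14 above and 2 below the references, and DESeq2 called 13 higher and 2 lower. The set is one that the study displays for the same libraries, so its direction is no independent evidence. The members not yet described include *Plcg2*, a phospholipase downstream of immune receptors, at 211 and 124 CPM against 23.6, 52.3 and 11.01 CPM, and *Prkcq*, protein kinase C θ, at 126 and 53.05 CPM against 11.8, 42.4 and 6.71 CPM. *Syk*, a kinase of immune receptors, was at 42.3 and 25.8 CPM against 11.1, 16.6 and 11.5 CPM. *Cxcl12*, a chemokine of stromal cells, had 0 reads in both KO libraries, and it was at 2.18, 2.12 and 1.26 CPM in the references and 0, 0 and 0.156 CPM in WT1, WT2 and HET1. In all 14 genes above, WT1 and WT2 were also above every one of the 3 references.

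The interferon-stimulated genes lay above the references in 36 of 49 cases, with 2 below and a median log2 fold change of 1.63. DESeq2 called 13 higher and 0 lower. Without HET3, the counts above and below were 38 and 2. *Ifitm1* and *Ifitm3*, membrane proteins that block viral entry, were at 488 and 286 CPM against 40.1, 137 and 4.53 CPM and at 424 and 281 CPM against 49.8, 161 and 10.4 CPM. *Ddx58*, the RNA sensor RIG-I, was at 33.5 and 16.5 CPM against 4.21, 6.45 and 0.803 CPM. *Gbp7*, a guanylate-binding GTPase, was at 75.4 and 49.7 CPM against 13.6, 28.6 and 6.37 CPM. The receptor chain *Ifnar1* was at 45.5 and 33.6 CPM against 21.4, 17.4 and 19.4 CPM, whereas *Ifngr1*, of the interferon γ receptor, was below the references at 157 and 240.3 CPM against 294, 256 and 450.3 CPM. The list's median stood at 2.26 and 1.74 in KO1 and KO2, 0.07, 1.15 and -1.08 in WT3, HET2 and HET3, and 2.69, 2.74 and 1.22 in WT1, WT2 and HET1. The spread among the references, from HET3 to HET2, was therefore larger than the step from HET2 to KO2.

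Genes of antigen presentation by MHC class I went the same way in 12 of 20 cases, with 2 below. *B2m*, the light chain of all class I molecules, was at 1229 and 834 CPM against 336, 636 and 295 CPM. *Tap1*, of the peptide transporter, was at 30.5 and 18.7 CPM against 3.401, 9.55 and 7.92 CPM, and *Tapbp* (tapasin), which loads peptides, was at 73.99 and 73.7 CPM against 29.7, 46.7 and 39.2 CPM. *Psmb8*, an immunoproteasome subunit, was at 152 and 86.97 CPM against 26.4, 57.6 and 8.55 CPM, but *Psmb10*, another, was below at 145 and 178 CPM against 285, 243 and 273 CPM. The chaperones of the loading complex, *Calr* and *Pdia3*, overlapped.

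Genes that define stem cells separated the KO libraries from the references, and they also differed among the references. Of the LT-HSC markers 13 of 14 were above, and *Gfi1b* was below at 105 and 219 CPM against 487, 359.5 and 554 CPM. Without HET3, the counts above and below were 13 and 1. The 14 markers summed to 2807, 2756 and 1337 CPM in WT1, WT2 and HET1. Both total RNA wild types were thus higher than KO1 and KO2, at 2568 and 1818 CPM. *Angpt1*, a ligand of TEK made by stem cells, was at 233 and 129 CPM against 20, 66.3 and 6.14 CPM. *Hlf*, a transcription factor of self-renewal, was at 195 and 115 CPM against 15.4, 68.8 and 2.92 CPM. Of 44 transcription factor genes of stem cells, 27 were above and 5 below, and DESeq2 called 15 higher and 1 lower. Without HET3, the counts above and below were 27 and 5. *Hoxa9*, which drives expansion of progenitors, was at 117 and 68.8 CPM against 10.96, 39.3 and 1.89 CPM. *Mycn*, a MYC family member used by fetal stem cells, was at 241 and 157 CPM against 17.1, 37.1 and 2.24 CPM, and *Gfi1*, which restrains their cycling, was at 81.5 and 72.3 CPM against 9.64, 25.3 and 1.49 CPM. *Meis1*, *Prdm16*, *Erg* and *Runx1* were above as well. The 5 below were *Gfi1b*, *Tal1*, *Lyl1*, *Myb* and *Ikzf1*, of which *Gfi1b* and *Tal1* are also factors of the erythroid line and *Lyl1* turned to a log2 fold change of 0.07 with library size alone. *Myb*, a factor of cycling progenitors, was at 339 and 401 CPM against 521, 453 and 483 CPM. Surface genes followed, with 17 of 22 above and 0 below. *Slamf1*, encoding the CD150 of the sort, was at 77.4 and 48.8 CPM against 19.3, 22.1 and 12.6 CPM. *Kit*, the stem cell factor receptor also used in the sort, differed less, at 215 and 218 CPM against 144, 161 and 164 CPM. *Flt3*, a receptor of multipotent progenitors, overlapped at 41.6 and 21.8 CPM against 2.08, 27.3 and 0.803 CPM, with HET2 between the KO libraries. The median of the transcription factor list stood at 1.72 and 1.68 in KO1 and KO2, -0.06, 1.29 and -1.32 in WT3, HET2 and HET3, and 1.73, 1.89 and 1.27 in WT1, WT2 and HET1.

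**Figure D4:**
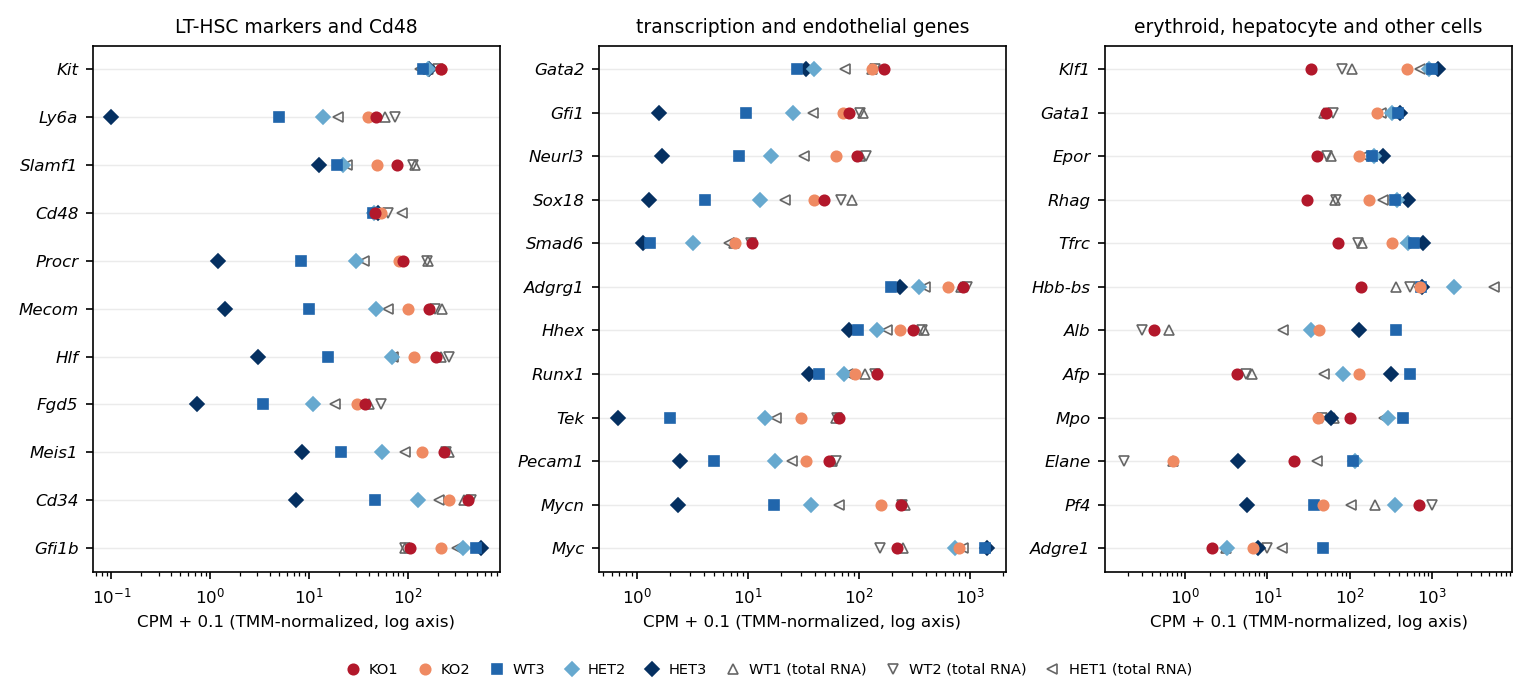
Levels (CPM + 0.1, log axis) of LT-HSC markers with *Cd48*, of transcription factor and endothelial genes, and of erythroid, hepatocyte and other cell genes, one point per library. Within the references most stem cell markers descend from HET2 to WT3 to HET3, with *Cd48* near level across the 5, and *Klf1* runs from 33.7 CPM in KO1 to 917 CPM or more in each reference.

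Endothelial and hemogenic genes were above the references at 30 of 42 and below at 1, with a median log2 fold change of 2.36. DESeq2 called 12 higher and 0 lower. Without HET3, 30 were above and 1 below. *Tie1* and *Tek*, the receptor tyrosine kinases of the angiopoietin system, were at 51.1 and 48.9 CPM against 2.84, 16.5 and 0.115 CPM and at 66.8 and 30.3 CPM against 1.88, 14.2 and 0.574 CPM. *Sox18*, an endothelial transcription factor, was at 48.1 and 39.8 CPM against 4.01, 12.7 and 1.204 CPM. *Robo4*, an endothelial guidance receptor, was at 27.1 and 18.5 CPM against 2.69, 5.36 and 0.401 CPM. Of the markers of mature endothelium 3 of 11 kept (27.3%) were above (*Egfl7*, *Emcn* and *Kdr*), near the 27.7% of all genes, and others were low or overlapped. *Cdh5*, VE-cadherin, was at 3.05 and 1.41 CPM against 1.88, 1.43 and 0.115 CPM, *Plvap*, of fenestrated endothelium, at 14.6 and 22.7 CPM against 17.2, 24.8 and 29.9 CPM, and *Lyve1*, of liver sinusoids, was under 1 CPM in all 5. The median of the endothelial and hemogenic list stood at 2.84 and 2.08 in KO1 and KO2, 0.03, 1.49 and -1.51 in WT3, HET2 and HET3, and 3.16, 3.38 and 1.53 in WT1, WT2 and HET1. The 5 genes that the study names for AGM stem cells in these samples were all above (*Adgrg1*, *Gata2*, *Neurl3*, *Smad6* and *Sox18*), which is again no independent evidence. *Adgrg1*, an adhesion receptor, was at 874 and 635 CPM against 196, 345 and 233 CPM, and *Neurl3*, a ubiquitin ligase, at 97.1 and 62.3 CPM against 8.27, 16.2 and 1.61 CPM.

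Notch pathway genes, which act in that emergence, were above at 8 of 19 and below at 0. *Notch1*, the receptor, was low at 5.09 and 4.84 CPM against 1.01, 3.297 and 0 CPM, and *Mfng*, which modifies Notch receptors with sugars, was at 196 and 133 CPM against 36.9, 82.9 and 34.8 CPM. *Rbpj*, the DNA-binding mediator of Notch, overlapped at 13.6 and 16.4 CPM against 15.02, 16.9 and 14.1 CPM, as did the targets *Hey1* and *Nrarp*. Of the SMAD and TGF-β genes 11 of 21 were above and 1, *Ltbp1*, below. *Smad1*, which signals for BMP receptors, was at 43.5 and 31.8 CPM against 6.34, 11.2 and 3.44 CPM, and *Smad4*, the partner common to the pathway, at 109.7 and 73.8 CPM against 47.5, 44.1 and 41.01 CPM. *Id3*, a target of BMP signals, was at 73.03 and 57.4 CPM against 23.04, 25.3 and 3.84 CPM.

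Genes of retinoic acid signaling, which supports dormancy of adult stem cells, had 6 of 16 kept genes (37.5%) above and 4 (25.0%) below. Over all genes kept the shares were 27.7% and 24.5%, so the share below was near that of all genes. With library size alone 8 were above and 1 below, against 39.2% and 14.4% of all genes kept. *Rara*, retinoic acid receptor α, was at 17.87 and 13.2 CPM against 3.15, 6.59 and 4.703 CPM. *Rarb*, another receptor, was near 0 in all 5, at 1 and 0 CPM against 0.051, 0.738 and 0 CPM, and *Cyp26b1*, which degrades retinoic acid, overlapped at 5.87 and 0.846 CPM against 0.102, 1.08 and 0 CPM. Of 8 dormancy genes that the study names for these samples, 4 were above and 1 below, which is no independent evidence either. *Cdkn1c*, the p57 inhibitor of cyclin-dependent kinases that keeps stem cells quiescent, was at 75.3 and 53 CPM against 11.02, 24.8 and 6.31 CPM. *Cdk6*, a kinase that speeds exit from quiescence, was below at 66.8 and 139 CPM against 215, 200.1 and 211 CPM. *Myc*, a driver of growth and division, did not separate the groups. It was at 219 and 802 CPM against 1378, 738 and 1435 CPM, with HET2 under KO2, and at 252, 156 and 863 CPM in WT1, WT2 and HET1. KO1 and the total RNA wild types were thus the lowest in *Myc*, and KO2 lay between HET2 and WT3.

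Receptors for cytokines and growth factors were above at 23 of 36 and below at 3, with DESeq2 calling 14 higher and 1 lower. Without HET3, the counts above and below were 23 and 3. *Il11ra1*, the interleukin-11 receptor chain, was at 63.2 and 39.5 CPM against 3.81, 21.6 and 4.59 CPM. *Il27ra*, of the interleukin-27 receptor, was at 35.7 and 26.5 CPM against 2.23, 8.12 and 2.696 CPM. *Csf3r*, for granulocyte colony-stimulating factor, was at 33.6 and 26.03 CPM against 5.74, 9.64 and 0.115 CPM, and *Cxcr4*, the homing receptor for CXCL12, at 16.3 and 7.42 CPM against 1.42, 4.72 and 0.746 CPM. *Epor*, the erythropoietin receptor, was below at 40.5 and 132 CPM against 186, 198 and 256 CPM, together with *Ifngr1* and *Tgfbr3*. The list's median stood at 1.45 and 1.26 in KO1 and KO2, 0.07, 0.53 and -0.60 in WT3, HET2 and HET3, and 1.32, 1.51 and 1.15 in WT1, WT2 and HET1.

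Polycomb genes, which silence developmental genes by histone H3 lysine 27 methylation (PRC2) and H2A ubiquitination (PRC1), divided by role. The PRC2 core subunits *Ezh2*, *Eed*, *Suz12*, *Rbbp4* and *Rbbp7* were all below the references, although *Rbbp4* turned to a log2 fold change of 0.17 with library size alone, and 7 accessory or alternative subunits were above. With library size alone 1 of 13 were below and 8 were above, and with upper-quartile factors 5 were on each side. *Ezh2*, the methyltransferase of dividing cells, was at 144 and 149.6 CPM against 197, 208 and 194 CPM. *Ezh1*, its counterpart in resting cells, was at 26.1 and 12.9 CPM against 10.8, 12.01 and 12.9 CPM, where KO2 and the highest reference round to the same value. *Jarid2*, a recruiting subunit, was at 56.2 and 44.4 CPM against 35.4, 34.05 and 25.2 CPM. Of the PRC1 genes 10 of 23 were above and 4 below, or 14 and 2 with library size alone. The chromodomain genes *Cbx2*, *Cbx6*, *Cbx7* and *Cbx8* were above, *Cbx2* at 15.1 and 20.8 CPM against 5.13, 6.69 and 4.88 CPM, and *Bmi1*, a PRC1 subunit needed for self-renewal, overlapped at 44.5 and 37.1 CPM against 43.4, 45.7 and 48.8 CPM. Fetal and imprinted genes were above at 11 of 22 and below at 1. *Hmga2*, a chromatin protein of fetal stem cells, was at 153 and 113 CPM against 29.1, 90.3 and 8.78 CPM, *Igf2bp2*, an RNA-binding protein, at 152 and 109.6 CPM against 40.6, 50.1 and 25.98 CPM, and *Ndn* (necdin), an imprinted growth suppressor, at 112 and 68.6 CPM against 9.44, 33.1 and 5.51 CPM. *Lin28b*, which sets the fetal program, overlapped at 35.1 and 57.7 CPM against 56.8, 59.5 and 74.3 CPM.

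DNA replication genes lay below the references at 30 of 46, and none of them lay above. Differences were small, with a median log2 fold change of -0.48, and DESeq2 called 1 lower. With library size alone 20 were below and 7 above, and without HET3 30 and 3. *Gmnn* (geminin), which prevents repeat licensing of origins, was at 174 and 244 CPM against 382, 374 and 397 CPM, and *Pole2*, of DNA polymerase ε, at 50.1 and 59.7 CPM against 97.8, 91.3 and 90.96 CPM. The helicase subunits *Mcm2*, *Mcm3*, *Mcm4* and *Mcm6* overlapped. Mitosis genes were below at 28 of 48 and above at 2 (*Cdc25b* and *Kif23*), or at 17 and 8 with library size alone. *Ccna2*, cyclin A, was at 283 and 432 CPM against 694, 620.1 and 739 CPM. *Mki67*, the marker of cycling cells, overlapped, at 172 and 252 CPM against 238, 262 and 247 CPM. Of the G1 genes 5 of 22 (22.7%) were below, near the 24.5% of all genes kept, and 2 (9.1%) above. With library size alone 3 were below and 10 above. *Ccne1*, cyclin E1, was at 50.6 and 155 CPM against 248, 261 and 348 CPM, *E2f4*, an E2F factor needed for erythroid maturation, at 247 and 474 CPM against 816, 741 and 959.5 CPM, and *Cdk2*, the partner of cyclin E, lay above at 197 and 201 CPM against 129, 119.6 and 122 CPM. WT1 and WT2 were at 83.1 and 64.1 CPM for *Ccne1*. Of the CDK inhibitors, *Cdkn1c*, *Cdkn1b* and *Cdkn2d* were above and *Cdkn2c* below. In the MYC network, 7 of 12 were above, among them the antagonists *Mxd1*, *Mxd3*, *Mxd4* and *Mnt*, and *Max* and *Mlx* were below. The replication list's median stood at -0.63 and -0.33 in KO1 and KO2, -0.01, -0.08 and 0.09 in WT3, HET2 and HET3, and -0.57, -0.76 and -0.06 in WT1, WT2 and HET1.

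Genes of protein synthesis and mitochondria lay mostly below the references. Of the mitochondrial ribosomal proteins 76 of 78 were below and none above, with a median log2 fold change of -0.76, and with library size alone 65 were below. *Mrpl17*, of its large subunit, was at 215 and 258 CPM against 470.4, 422 and 428 CPM. Of the cytoplasmic ribosomal proteins 69 of 86 were below and none above (median -0.67). *Rplp1*, of the ribosomal stalk, was at 248 and 355 CPM against 608, 629.7 and 599 CPM. Many of these genes have pseudogene copies, so their counts are uncertain. Translation factors were below at 40 of 45, with *Eif4g3* above. *Eif2s1*, the regulatory subunit of the initiation factor eIF2, was at 244 and 399 CPM against 763, 594 and 749 CPM. Of the respiratory chain genes encoded in the nucleus 70 of 78 were below and none above (median -0.64). *Cox5a*, of complex IV, was at 168 and 221 CPM against 339, 329 and 342 CPM, and *Sdhd*, of complex II, at 529 and 785 CPM against 1504, 1259.8 and 1536 CPM. DESeq2 called 9, 5, 5 and 5 members of these 4 lists lower. With library size alone 59, 32 and 56 of the last 3 were below. Without HET3, 77, 70, 40 and 72 of the 4 lists were below. Genes on the mitochondrial genome were below at 3 of 7, or at 1 with library size alone. *mt-Nd1*, of complex I, was at 1256 and 2986 CPM against 3858, 3588 and 3834 CPM. KO1 was the lowest of the 5 libraries in most of these genes, and KO2 stood between KO1 and the references. The median of the respiratory chain list stood at -0.82 and -0.47 in KO1 and KO2, 0.04, -0.02 and -0.002 in WT3, HET2 and HET3, and -0.79, -0.98 and -0.23 in WT1, WT2 and HET1.

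Protein quality control followed the same order. Chaperonin and prefoldin genes were below at 19 of 20, with a median of -0.86, and proteasome genes at 37 of 41. With library size alone 16 and 30 of these were below. *Tcp1*, of the folding ring for actin and tubulin, was at 562 and 809 CPM against 1513, 1207 and 1552 CPM. *Psmc2*, a proteasome ATPase, was at 256 and 409 CPM against 740.1, 660.1 and 762 CPM. The 3 proteasome genes above were *Psmb8*, *Psmb9* and *Psme1*, all induced by interferon. TCA cycle genes were below at 16 of 24, and *Idh3a*, of isocitrate dehydrogenase, was at 246 and 462 CPM against 807, 637 and 906 CPM. Sterol synthesis genes were below at 13 of 21 and above at 2, or at 5 and 3 with library size alone. *Sqle*, squalene epoxidase, was at 54.8 and 85.6 CPM against 105, 94.2 and 119.8 CPM, and *Srebf2*, the factor that induces the pathway, was above at 105 and 99.9 CPM against 48.4, 76.3 and 65.2 CPM. Glycolysis had no common side, with 9 of 27 above and 11 below, or 10 and 7 with library size alone, and its isoforms divided. *Ldha*, the lactate dehydrogenase chain of highly glycolytic cells, was below at 1145 and 1775 CPM against 2828, 2057 and 2964 CPM, while *Ldhb* was above at 114 and 61.6 CPM against 9.999, 42.1 and 2.47 CPM. *Pkm*, pyruvate kinase, was above at 562 and 455 CPM against 302, 299 and 359 CPM, and *Tpi1*, triose phosphate isomerase, below at 708 and 838 CPM against 1233, 1071 and 1220.3 CPM.

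Lysosomal genes, which are abundant in dormant stem cells, were divided as well, 9 of 33 (27.3%) above and 6 (18.2%) below. Over all genes kept the shares were 27.7% and 24.5%. With library size alone 15 were above and 2 below, against 39.2% and 14.4% of all genes kept. *Tfeb*, a regulator of lysosome genes, was at 8.23 and 7.42 CPM against 5.13, 2.07 and 3.499 CPM, and *Lamp1*, of the lysosomal membrane, was below at 300 and 339.7 CPM against 466, 427 and 503 CPM. In the BCL2 family 4 of 16 (25.0%) were above and 5 (31.2%) below, near the shares over all genes, or 5 and 4 with library size alone. The survival genes *Bcl2* and *Bcl2l1* were above, *Bcl2* at 15.3 and 11.04 CPM against 4.62, 8.76 and 3.96 CPM, and the death effectors *Bax* and *Bak1* below, *Bax* at 94.4 and 131 CPM against 164, 167 and 181 CPM. *Bbc3* (PUMA), which promotes death, was above at 18.01 and 13.8 CPM against 4.62, 9.94 and 2.92 CPM. Adhesion genes were above at 17 of 31 and below at 1 (*Cd44*). *Jam3*, a junctional molecule of stem cells, was at 60.7 and 40.5 CPM against 2.84, 18.5 and 2.47 CPM, and *Selplg*, the selectin ligand used in homing, at 162 and 104 CPM against 53.96, 84.1 and 52.1 CPM. Of the core histone genes 17 of 53 (32.1%) were above and 4 (7.5%) below, or 22 and 0 with library size alone. The share above was near that of all genes kept. Most replication-dependent histone mRNAs lack a poly(A) tail, and the members near their floor are not read further.

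Immediate early genes, which respond within minutes to handling and dissociation, overlapped between the groups for most members. Only *Dusp2* of 29 was above and 3 were below. *Fos* was at 105 and 312 CPM against 89.6, 769.6 and 121 CPM, *Klf2*, a quiescence-linked transcription factor of the same response, at 7.64 and 60.6 CPM against 4.21, 261 and 4.24 CPM, and *Atf3*, a stress factor, at 0.227 and 0.047 CPM against 0.863, 30.3 and 0.918 CPM. HET2 was the highest library in each of them and KO2 was above KO1 in *Fos* and *Klf2*. Without HET2, 17 of the 27 genes then kept were above and 3 below, against 37% and 29.6% of all genes kept in that setting.

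Genes of other fetal liver cells also differed between libraries. Erythroid genes were below at 11 of 18 and above at 0, and the list summed to 1844 and 5340 CPM in KO against 6754 to 8939 CPM in the references and 2970 to 18139 CPM in the total RNA libraries. *Gata1*, the erythroid and megakaryocyte factor, was at 52.2 and 215 CPM against 392, 328 and 413 CPM, *Tfrc*, the transferrin receptor, at 72.99 and 325 CPM against 599, 512 and 779 CPM, and *Car1*, carbonic anhydrase of red cell precursors, at 1.73 and 87.8 CPM against 278, 106 and 195 CPM. Hepatocyte genes summed to 67.4 and 336 CPM in KO against 242 to 1675 CPM in the references. *Alb*, albumin, was at 0.318 and 42.1 CPM against 370.1, 34.1 and 132 CPM, and KO2 was higher than HET2. *Afp*, α-fetoprotein, was at 4.14 and 129 CPM against 539, 83.6 and 314 CPM. With these overlaps 4 of 17 were below and 1 above. Without HET2, 15 of 17 were below and 1 above, against 29.6% and 37% of all genes kept in that setting. Megakaryocyte genes were above at 6 of 16 (37.5%, against 27.7% of all genes), among them *Fli1* and *Vwf*, which stem cells also make. *Pf4*, platelet factor 4, was at 692 and 47.8 CPM against 37.1, 359 and 5.56 CPM, high in KO1 and HET2. Macrophage genes separated no gene, with *C1qb* at 1.77 and 23.02 CPM against 54.97, 7.92 and 15.9 CPM and WT3 the highest. Myeloid granule genes differed by library, *Mpo*, myeloperoxidase, being at 101 and 41.2 CPM against 444, 289 and 59.3 CPM. Of the genes of lymphoid cells, *Cd79b*, part of the B cell receptor, was at 75.2 and 49.9 CPM against 11.9, 25.9 and 2.06 CPM, while *Il7r* was at or under about 1 CPM in all 5. The mast cell and stromal lists had 2 and 7 kept genes, of which 1 and 1 were above and 0 and 2 below. Multipotent progenitor genes had 0 above and 0 below of 7. Thus KO1 held the least erythroid and hepatocyte signal of the 5 libraries, and WT3 the most hepatocyte and macrophage signal. The part of these cells in the other differences was not tested.

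**Figure D5:**
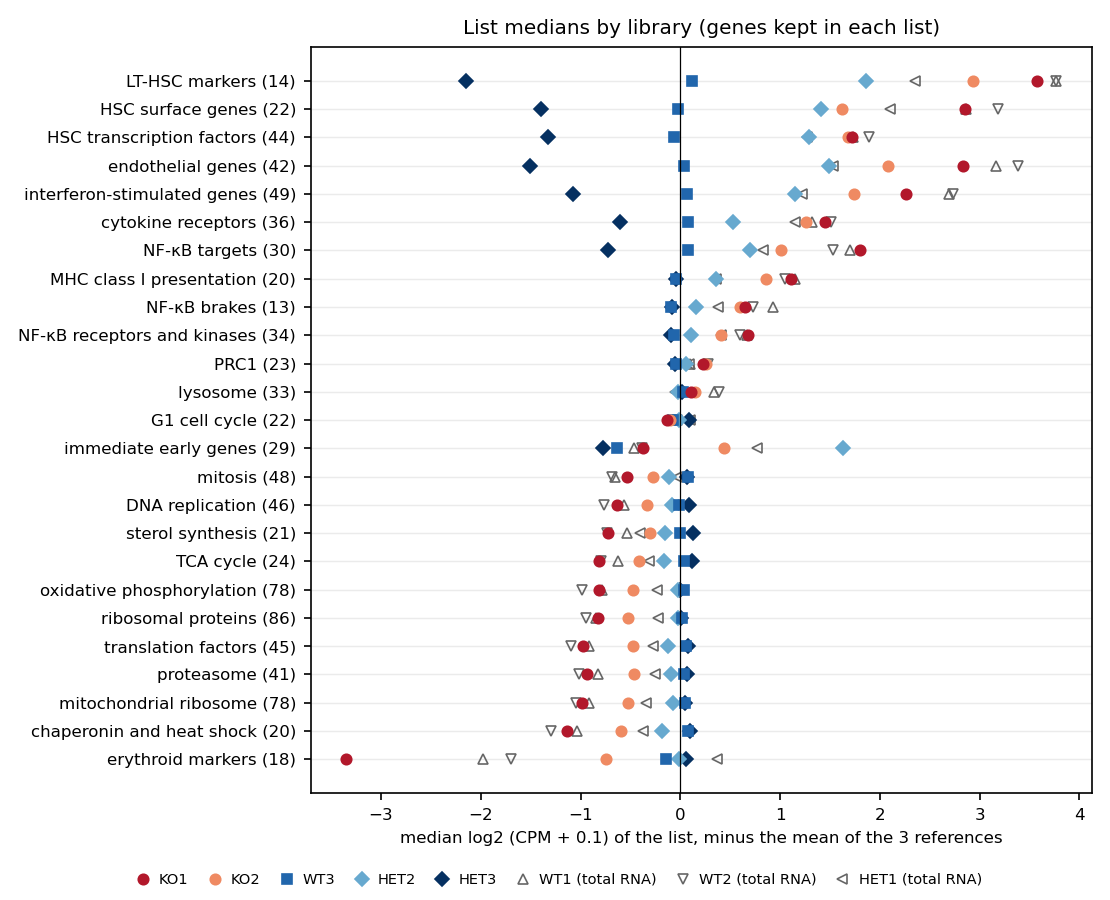
Median difference of each of 25 gene lists from the mean of the 3 references (log2 units of CPM + 0.1), one point per library. Stem cell, endothelial and interferon lists spread from HET3 through WT3 and HET2 to the KO libraries and WT1 and WT2, and ribosomal, mitochondrial and chaperonin lists hold the references together near 0 with both KO libraries and WT1 and WT2 lower.

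Genes beyond the references also differed in features of sequence and annotation that the rule did not use. At a mean of 5 CPM or more, protein-coding genes below had shorter spliced transcripts (median 2828 bases) than those above (3715) or those that overlapped (3679.5). Their median GC content was 47.98%, against 50.28% above and 49.43% overlapping. They also held more reads, at a median of 105.004 CPM against 24.1 and 34.8, a level taken from the same values that the rule used. By annotation class, 83 of 1398 processed pseudogenes (5.94%) were above and 411 (29.4%) below. In several other classes only the share below was low, and the share above was near the 27.7% of all genes kept. Of 931 loci of the provisional TEC class, 239 (25.7%) were above and 39 (4.19%) below, and of 711 antisense genes 228 (32.1%) and 57 (8.02%). Long intergenic RNA genes had 190 of 622 (30.5%) above and 69 (11.1%) below. The X chromosome held 3.51% of the genes above and 3.05% of those below. The part of transcript length, GC content and abundance in these differences was not tested.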

How the data were processed

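The authors trimmed 50-base single-end reads with Trim Galore 0.6.6, aligned them to GRCm38 with STAR 2.7.8 (Ensembl genes) and deposited raw counts of uniquely mapped reads per gene. The strand column was not given in the sources used here, so genes that overlap or are antisense to another are uncertain. A second deposited table holds log2 values normalized by the authors over all 8 libraries with sex removed as a covariate, and it was not used. Columns for all samples of the series were mapped by name, with 0 left unmapped. Gene names came from the GENCODE M 21 annotation, in which 55141 of 55487 identifiers had a symbol, as had 18508 of those kept.

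Genes with 10 or more reads over the 5 libraries were fitted with edgeR 4.0.16 (R 4.3.3, quasi-likelihood, trimmed-mean factors, no covariate), KO against the pooled WT and HET references. A call needed an adjusted p under 0.05 and more than 1 log2 unit of change. CPM values use the same factors, which were matched for the 3 libraries outside the comparison. Fold changes come from the edgeR fit. The permutation test and the differences between pairs of libraries use log2 CPM with a prior count of 2. Alternatives were DESeq2 1.42.0, apeglm 1.24.0, other scalings, filters and library sets, and leaving out each library. The scripts were tested on simulated counts.

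Named genes were *Nfkbia*, genes that check the sex labels, members of the 52 lists where their list is described, and 15 genes in each direction. The comparison, the genes and the lists were chosen with earlier results of these data known. Counts of 3 reads were taken as the floor of detection, and intervals and floors cover counting error only. Some genes of these lists are counted but not reported singly here.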

Additional observations from a re-analysis of the deposited data

Results flagged for a closer look

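The libraries labelled total RNA took no part in the comparison, yet both of their wild types stood on the same side of the 3 references as the KO libraries for most genes. Of the 5131 genes above the references in KO, 4316 (84.1%) were above them in both WT1 and WT2, and of the 4539 below, 3938 (86.8%) were below them in both. Over all 18530 genes, these libraries were above the references at 6229 (33.6%) and below at 5484 (29.6%). At a mean of 5 CPM or more the shares were 90.7% of the genes above and 92.5% of those below, against 32.5% and 43.9% of all such genes. HET1, the remaining library of that label, was on the same side for 68.1% and 68.6% of the genes above and below among all genes kept. At a mean of 5 CPM or more these were 72.2% and 73.5%. The share of HET1 over all genes was not computed, so these values are not read further. The comparisons share their reference libraries, and molecule label and sex cannot be told apart here.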

How the results depend on the processing

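No paired analysis was possible because KO libraries 1 and 2 and the references share only the replicate number 2. The number of genes called by edgeR, 0 as reported, ranged from 0 to 1201 when 1 library was left out, and the 1201 (177 higher, 1024 lower) came without KO2, a single KO library then standing for its group. It was 1543 (1096 higher, 447 lower) with no filter beyond 1 read, 1802 with DESeq2's Wald test, 1392 with apeglm and 3 with the version 4 fit, and 0 under other scalings, the filterByExpr filter, autosomal genes and all 8 libraries. The cause was not tested. Genes below the references fell from 4539 to 2660 with library size alone. At a mean of 50 CPM or more, 2 KO and reference pairs in place of 1 were closer than KO1 and KO2. All 30 genes named by rule kept their direction in every setting, and of other genes given a direction, *Lyl1* (0.0652) and *Rbbp4* (0.17) turned with library size alone.

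As the median log2 fold change of a list minus that of all genes, 29 to 34 lists were positive over the alternatives, against 31 as reported. The lists that turned were CDK inhibitors (-0.19 with no filter), lymphoid (0.52 with filterByExpr), mast cell (-0.81 and -1.92 with all 8 libraries, with and without the label as covariate), BCL2 (0.0567 and 0.0205 likewise), and, without it, sex genes (-9.16), myeloid (0.0362), mature endothelial (-0.0585) and stromal (-0.26). Leaving out 1 library gave -0.81 to 0.75 for immediate early genes (positive without KO1 or HET2), -1.73 to 0.70 for stromal, -0.29 to 0.58 for BCL2, -2.67 to 0.83 for myeloid and -1.78 to 2.04 for lymphoid genes (highest without HET2). For lysosome genes it gave -8e-04 to 0.10, the lowest without WT3. Depth limits genes near the floor of 3 reads per library.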

Other observations

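In some genes both KO libraries lay beyond all 6 others. Of the 18530 genes kept, 571 were above all 6 (11.1% of those above the 3 references) and 379 below (8.35% of those below). Such counts were not set against those of other pairs of libraries. At a mean of 5 CPM or more they were 223 and 203 of 9852 genes. Among the protein-coding ones of that abundance 42 were above and 11 below with a fold change of over 1 log2 unit against the 3 references, and those named here were chosen after their values were seen. Above were *Relb*, *Sipa1* and *Rai14*, described earlier, and *Smtn*, encoding the cytoskeletal protein smoothelin, at 19.1 and 17.4 CPM in KO1 and KO2 against 3.76, 5.95 and 3.84 CPM in WT3, HET2 and HET3 and 15.6, 17.2 and 9.64 CPM in WT1, WT2 and HET1. *Crtc2*, a coactivator of CREB, was at 32.6 and 28.9 CPM against 13.04, 15.9 and 12.7 CPM and 28.6, 22.3 and 23.3 CPM in WT1, WT2 and HET1. *Alox5*, the enzyme that begins leukotriene synthesis, was at 10.9 and 11.7 CPM against 3.35, 2.17 and 3.44 CPM and 10.8, 10.22 and 1.98 CPM in WT1, WT2 and HET1. Below were *Nfkbia* and *Tma7*, and *Tdg*, a DNA glycosylase that removes oxidized 5-methylcytosine, at 1.27 and 1.504 CPM against 10.8, 1.77 and 10.96 CPM and 1.54, 1.51 and 1.56 CPM in WT1, WT2 and HET1. *Piga*, which begins synthesis of the GPI anchor, was at 30.9 and 38.8 CPM against 86.1, 58.5 and 80.5 CPM and 43.4, 39.8 and 73.7 CPM in WT1, WT2 and HET1. In *Smtn*, *Crtc2*, *Alox5*, *Tdg*, *Rai14*, *Tma7* and *Piga* the nearest total RNA library was close to the nearer KO library.

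*Xist*, the RNA of the inactive X chromosome, was at 153 and 55.2 CPM in KO1 and KO2 against 66.2, 21.4 and 40.1 CPM in WT3, HET2 and HET3 and 0.353, 0.555 and 2.97 CPM in WT1, WT2 and HET1, so the 5 compared libraries and the other 3 separate as their sex labels do. Genes of the Y chromosome that were listed for this check did not pass the filter on the 5 libraries.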
